A study of Rattus norvegicus with 10 samples.

Results

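Fibulins and emilins are secreted glycoproteins of the elastic fibre, and 6 of their genes were chosen by name: Fbln1, Fbln2, Fbln5, Efemp1, Efemp2 and Emilin1. Every probe set annotated to 1 of these symbols was taken, which gave 5 probe sets of the 15866 measured, 1 each for Fbln1, Fbln2, Fbln5, Efemp1 and Emilin1. Efemp2 had no probe set under its symbol in the annotation used here and was not analysed here. RNA came from the abdominal aorta of untreated rats, with 5 arrays of the Brown Norway strain (BN) and 5 of the LOU strain, and with a stated age of 5 weeks in both. The notes on housing give 18 weeks as the longest time any rat was kept, and the sex of the animals and whether each array came from its own rat are not given in the labels used here, so p-values measure only the spread between these arrays. By its title, the series asked which genes lie behind rare arterial traits of BN rats, and the 2 strains are its only groups.

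An elastic fibre has a core of cross-linked elastin inside a sheath of fibrillin microfibrils, and in the aorta such fibres form the lamellae that let the wall stretch and recoil. Fibulins are built from repeated calcium-binding EGF-like modules and a shared C-terminal module, and they join tropoelastin, fibrillins, lysyl oxidases and basement membrane proteins to each other. Fbln1 and Fbln2 encode the long fibulins, which also bind fibronectin, nidogen and proteoglycans. Fbln5, Efemp1 (fibulin 3) and Efemp2 (fibulin 4) encode the short fibulins. In mice, loss of Fbln5 leaves the aorta stiff and tortuous, loss of Efemp2 prevents elastic fibre assembly, and loss of Emilin1, whose product lies where elastin meets the microfibrils and restrains TGF-beta maturation, raises blood pressure.

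The stretches before the start sites of Fbln2, Fbln5 and Efemp1 are shown because these members include some that were low and 1 that was high in BN arrays on average. Each is 250 bases long, 5′ to 3′ on the gene's strand, from RefSeq's GRCr8 assembly, which was made from a BN rat. Capitals mark GGGCGG (the GC box bound by Sp1) and CAGAC (the core of a Smad-binding element), on either strand.
Fbln2, chr4:125261409-125261658, plus strand: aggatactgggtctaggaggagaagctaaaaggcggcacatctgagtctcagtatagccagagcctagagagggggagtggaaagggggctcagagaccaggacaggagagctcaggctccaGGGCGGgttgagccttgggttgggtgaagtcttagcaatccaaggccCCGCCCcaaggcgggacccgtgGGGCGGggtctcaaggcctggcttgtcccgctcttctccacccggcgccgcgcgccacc
Fbln5, chr6:126742707-126742956, minus strand: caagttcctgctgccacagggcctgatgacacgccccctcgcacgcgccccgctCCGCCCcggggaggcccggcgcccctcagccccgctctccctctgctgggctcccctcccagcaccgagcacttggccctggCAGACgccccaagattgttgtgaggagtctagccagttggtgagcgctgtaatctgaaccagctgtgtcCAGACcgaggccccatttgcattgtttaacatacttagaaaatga
Efemp1, chr14:106811614-106811863, plus strand: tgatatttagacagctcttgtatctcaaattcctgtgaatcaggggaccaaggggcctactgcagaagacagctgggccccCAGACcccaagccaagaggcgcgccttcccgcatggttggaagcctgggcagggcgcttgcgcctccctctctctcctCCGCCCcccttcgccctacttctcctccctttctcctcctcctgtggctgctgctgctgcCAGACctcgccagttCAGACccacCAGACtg
Of the 6 genes, 4 had an entry in this table, and Fbln1 and Emilin1 did not. The Fbln2 stretch held 3 GC boxes and no CAGAC, the Fbln5 stretch 1 GC box and 2 CAGAC, and the Efemp1 stretch 1 GC box and 4 CAGAC. Among 33469 stretches of the same length before RefSeq start sites, 30.5% held a GC box and 42.9% a CAGAC. Neither TATAAA, the TATA box, nor CATTCC, a site of TEAD factors, was found in the 3 stretches on either strand, and 12.9% and 12.1% of all stretches held them. No 2 of the marked matches overlapped. The GC content was 64.0% for Fbln2, 63.2% for Fbln5 and 61.2% for Efemp1, against a median of 51.2% over all stretches. In each of the 3 genes another RefSeq transcript begins inside the stretch shown. These matches are letters in a window and were not related to the signals.

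The values are linear array signals, 1 per probe set, scaled to the same trimmed mean on every array. Between 69.7% and 81.9% of probe sets lay above an array's background level, taken as the 95th percentile of its 45 probe sets for bacterial spikes, which ran from 21.2 to 49.2. Genes that define the aortic wall were bright: elastin (Eln) averaged 9903 ± 981 in BN and 10149.7 ± 595 in LOU, and the smooth muscle genes Acta2 and Myh11 averaged 11844.8 and 11140.7 in BN and 11272.1 and 10204.2 in LOU. The endothelial gene Pecam1 averaged 160 in BN and 181 in LOU. BN array 3 stood apart in nerve and Schwann cell markers and LOU array 1 in macrophage and lymphocyte markers, so the members' differences are also given without both.

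Fbln1, Fbln2, Fbln5 and Emilin1 had lower mean log2 signals in BN than in LOU, Efemp1 had a higher one, and none of the 5 passed the test between strains. With limma, 125 of the 15866 probe sets (0.788%) had an adjusted p under 0.05. At an unadjusted p under 0.05, 1 of the 5 members passed (Fbln1), where 13.3% of all probe sets did. No member had strains that did not overlap, a property that 4.18% of all probe sets had. The median log2 difference of the 5 members was -0.35, against -0.027 over all probe sets, and 53.5% of all probe sets were lower in BN.

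**Figure D1:**
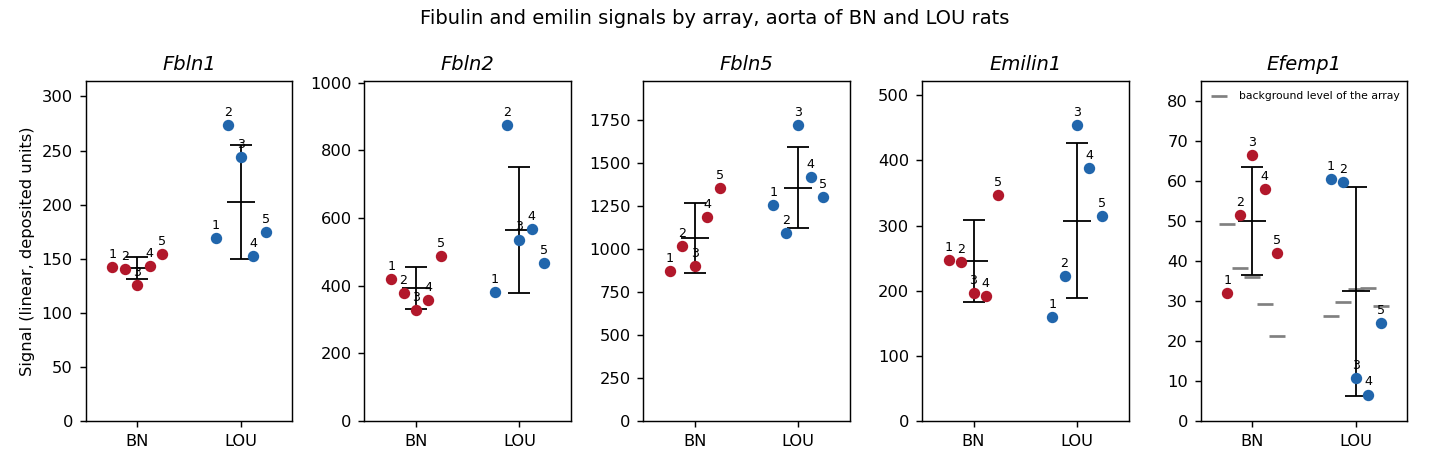
Signal of each fibulin or emilin probe set (vertical axis, linear deposited units, each panel from 0) on the 5 BN arrays (left, red) and the 5 LOU arrays (right, blue), with the replicate number beside each point, the mean and SD in black and, for Efemp1, the background level of each array as a grey dash. Fbln1 signals lie between 125.4 and 153.9 on BN arrays and reach 273.3 on LOU array 2, and 3 of the 5 LOU points of Efemp1 lie below their grey dash.

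Fbln1 encodes fibulin 1, a long fibulin of elastic fibres and basement membranes. Its signal was 142.6, 140.5, 125.4, 143.2 and 153.9 on BN arrays 1 to 5, against 169, 273.3, 243.6, 152.6 and 174.4 on LOU arrays 1 to 5. The 5 BN arrays were close together, and BN array 5 was above LOU array 4, so the strains overlapped by this 1 pair of arrays. The mean was 141 ± 10.2 in BN and 203 ± 52.7 in LOU (SD, n = 5 each), a log2 difference of -0.49 with a standard error of 0.18 and a 95% interval of -0.88 to -0.10. This was a 1.40-fold higher level in LOU, with limma's adjusted p at 0.267. The SD of the log2 signals was 0.11 in BN and 0.36 in LOU, a difference in spread that was not tested.

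Fbln2 encodes fibulin 2, the other long fibulin, which binds versican and nidogen. Its signal was 419.9, 377.5, 328, 357.1 and 488.3 on BN arrays 1 to 5, against 380.2, 874, 536.4, 566.4 and 466.9 on LOU arrays 1 to 5. LOU array 2 was the highest of all by a wide margin, and LOU arrays 1 and 5 lay inside the BN range. The mean was 394 ± 62.4 in BN and 565 ± 187 in LOU (SD, n = 5 each), a log2 difference of -0.48 with a 95% interval of -0.96 to 0.01 and a limma adjusted p of 0.385. Without LOU array 2 the difference was -0.30.

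Fbln5 encodes fibulin 5, the short fibulin that tethers elastin to microfibrils and cells. Its signal was 870.4, 1019.1, 900.1, 1183.5 and 1354.9 on BN arrays 1 to 5, against 1255.8, 1091.3, 1719.4, 1419.1 and 1303.4 on LOU arrays 1 to 5. BN arrays 4 and 5 lay inside the LOU range, and LOU arrays 1, 2 and 5 lay inside the BN range. The mean was 1065.6 ± 203 in BN and 1357.8 ± 234 in LOU (SD, n = 5 each), a log2 difference of -0.35 with a 95% interval of -0.73 to 0.02 and a limma adjusted p of 0.409.

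Emilin1 encodes elastin microfibril interfacer 1. Its signal was 247.2, 243.7, 195.9, 191.5 and 347.4 on BN arrays 1 to 5, against 159.5, 222.2, 453.8, 387.6 and 314.3 on LOU arrays 1 to 5. LOU arrays held both the lowest and the highest signals, and the BN range lay wholly inside the LOU range. The mean was 245 ± 62.8 in BN and 307 ± 119 in LOU (SD, n = 5 each), a log2 difference of -0.26 with a 95% interval of -0.92 to 0.39 and a limma adjusted p of 0.740. The difference was -0.10 without LOU array 3, -0.16 without LOU array 4, -0.40 without BN array 5 and -0.48 without LOU array 1.

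Efemp1 encodes fibulin 3, a short fibulin that binds the protease inhibitor TIMP3, and it was the 1 dim member. Its signal was 31.9, 51.5, 66.6, 58.1 and 42.1 on BN arrays 1 to 5, against 60.5, 59.7, 10.7, 6.6 and 24.4 on LOU arrays 1 to 5. LOU arrays 1 and 2 lay inside the BN range, and the other LOU arrays lay below it. The signal was above background on 4 BN arrays (not on array 1) and on 2 LOU arrays (not on arrays 3, 4 and 5).

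The Efemp1 mean was 50.04 ± 13.5 in BN and 32.4 ± 26.2 in LOU (SD, n = 5 each). The log2 difference was 1.09 with a 95% interval of -0.26 to 2.43 and a limma adjusted p of 0.482. It rested on signals below background: with each of those set to its array's background level, the mean log2 values were 5.72 in BN and 5.35 in LOU, a difference of 0.37 or 1.29-fold. With every signal under 32 set to 32 the difference was 0.24 (adjusted p = 0.793 by limma), and with 16 added to every signal it was 0.61. Without LOU array 4 it was 0.64.

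**Figure D2:**
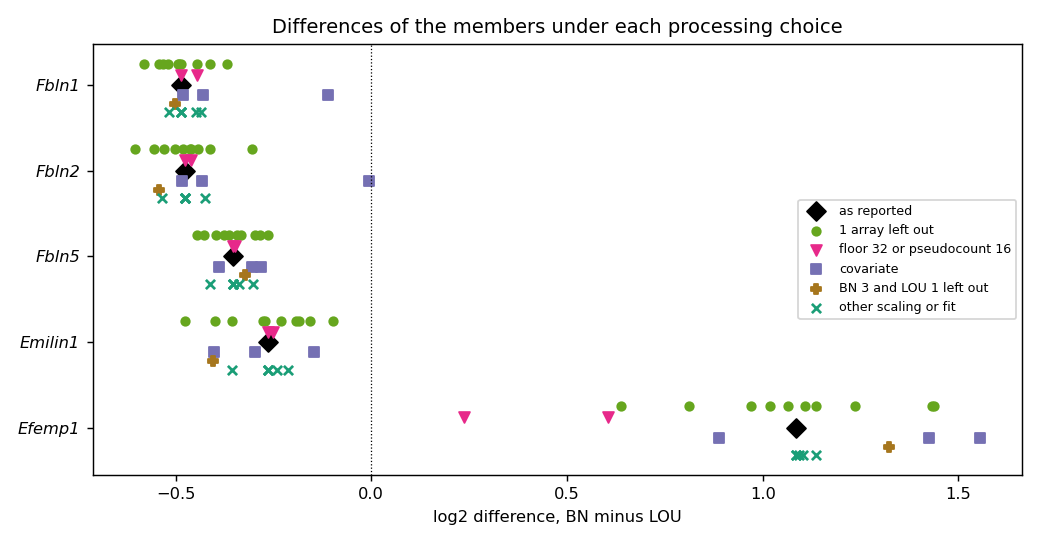
Log2 difference of each member, BN minus LOU (horizontal axis), as reported (black diamond) and under each other processing choice (coloured marks, 1 per choice). The 4 lower members stay left of 0 in all settings drawn, Fbln2 comes nearest to it at -0.0059 with the fibroblast marker mean as a covariate, and Efemp1 moves between 0.24 and 1.56.

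Without BN array 3 and LOU array 1 together, the log2 differences were -0.50 for Fbln1, -0.54 for Fbln2, -0.32 for Fbln5, -0.40 for Emilin1 and 1.32 for Efemp1. None passed limma's test, with adjusted p-values of 0.329 to 0.538. All 5 differences kept their sign with median centring of the arrays (-0.44, -0.42, -0.30, -0.21 and 1.14 in the same order) and with quantile normalization (-0.45, -0.48, -0.41, -0.24 and 1.10).

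The members did not share 1 order of arrays. Fbln1 and Fbln2 had their highest signals on LOU array 2 and their lowest on BN array 3. Markers of adventitial fibroblasts, the matrix-producing cells of the outer wall, were also highest and lowest there, with list means of 0.56 on LOU array 2 and -0.32 on BN array 3 (log2, each gene centred over the 10 arrays). Over the strains these means ran from -0.32 to -0.04 in BN and from -0.13 to 0.56 in LOU, and the summed signal of the 23 measured markers from 50452.3 to 68963.7 in BN and from 58286.2 to 76022.1 in LOU, with 20 of the 23 above background on all 10 arrays and none below it on all. With the fibroblast mean as a covariate the log2 difference was -0.11 for Fbln1 and -0.0059 for Fbln2, against -0.39 for Fbln5 and -0.30 for Emilin1. The fibroblast mean itself was nearly separated by strain, and its part in the difference between strains was not tested. Endothelial markers had the same extremes, with means of 0.42 on LOU array 2 and -0.59 on BN array 3. Their mean was not used as a covariate. In whole tissue, fewer cells of a type and less RNA per cell cannot be told apart.

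Fbln5 and Emilin1 shared another order, with LOU array 3 highest, LOU array 4 next and BN array 5 after it in both. These 3 arrays had the lowest means of adipocyte markers, -0.75 on LOU array 3, -1.05 on LOU array 4 and -1.16 on BN array 5, where the other 7 arrays lay between -0.32 and 0.98. Efemp1 ran the other way on LOU arrays 3 and 4, which held its lowest signals, while on BN array 5 it was above background. The summed signal of the 22 measured adipocyte markers ran from 12459.1 to 67262.9 in BN and from 13176.8 to 62362.5 in LOU, 20 of the 22 were above background on all 10 arrays, and Lep, the leptin gene of white fat, was above it on none. With the adipocyte mean as a covariate the log2 difference was -0.30 for Fbln5, -0.15 for Emilin1 and 0.89 for Efemp1. Without it these were -0.35, -0.26 and 1.09. Fbln1 and Fbln2 differed by -0.48 and -0.43 with this covariate, and by -0.49 and -0.48 without it. The part of fat in these differences was not tested. LOU arrays 3 and 4 also had the lowest means of nerve and Schwann cell markers, -0.93 and -0.99.

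**Figure D3:**
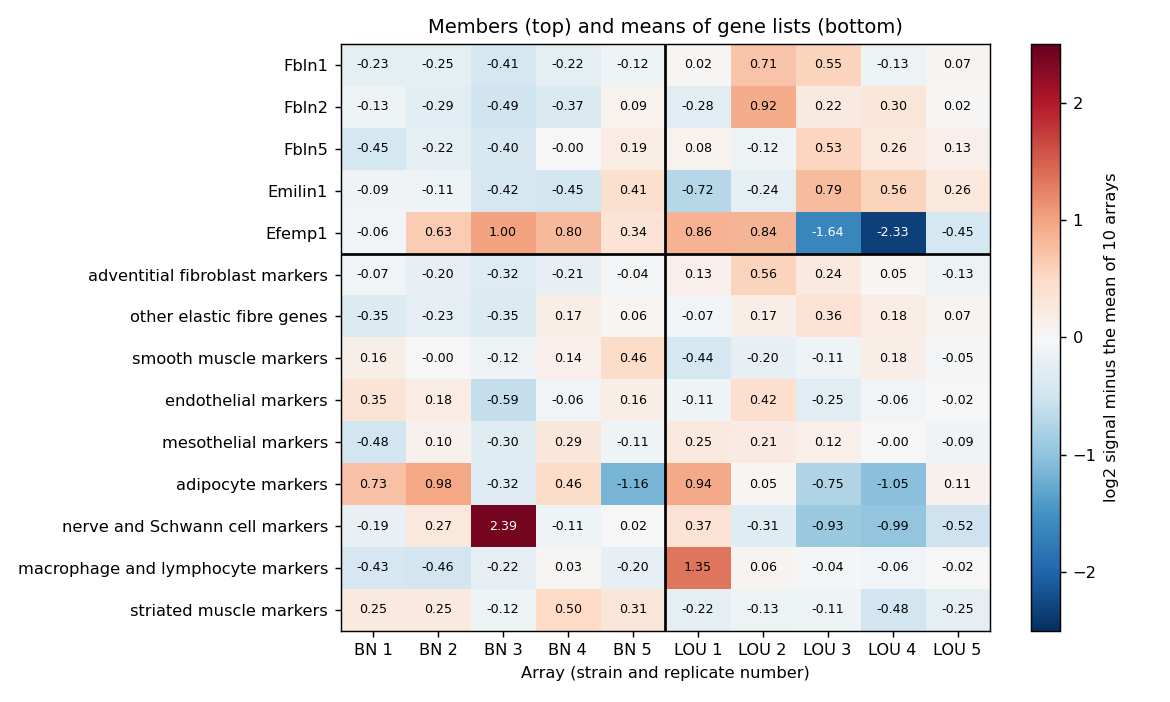
Log2 signal minus the mean of the 10 arrays (colour and printed value) for the 5 members (rows above the line) and for the mean of each gene list (rows below it) on the 5 BN arrays (left) and the 5 LOU arrays (right). Fbln1 and Fbln2 reach 0.71 and 0.92 on LOU array 2 beside a fibroblast mean of 0.56 and an endothelial mean of 0.42. Fbln5 and Emilin1 reach 0.53 and 0.79 on LOU array 3 beside an adipocyte mean of -0.75.

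The other marker lists also overlapped between strains in their means. Mesothelial markers, of which 10 were measured and only 3 were above background on all arrays, had means of -0.48 to 0.29 in BN and -0.09 to 0.25 in LOU, and Gpm6a and Krt19 were above background on no array. Smooth muscle markers had means of -0.12 to 0.46 in BN and -0.44 to 0.18 in LOU, and endothelial markers of -0.59 to 0.35 in BN and -0.25 to 0.42 in LOU. Striated muscle markers, with means of -0.12 to 0.50 in BN and -0.48 to -0.11 in LOU, and with Myh4, Myh7 and Pvalb above background on no array, overlapped between strains by BN array 3 and LOU array 3. Nerve and Schwann cell markers had means of -0.19 to 2.39 in BN and -0.99 to 0.37 in LOU, and macrophage and lymphocyte markers of -0.46 to 0.03 in BN and -0.06 to 1.35 in LOU. Over all marker lists 2 of 109 measured genes passed limma's test, against 0.72% of all genes: the fibroblast marker Ogn (-1.53) and the myelin gene Mbp (1.73), both named here after their values were seen. Mbp passed with a limma adjusted p of 0.0460. It is on the nerve and Schwann cell list, where BN array 3 stood apart, and its value without that array is not given here. With the mesothelial mean as a covariate, Efemp1 differed by 1.42 and Emilin1 by -0.40.

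Among other genes of the elastic fibre, 1 passed the test. Of 16 listed genes 13 were measured, 12 of which had a negative log2 difference and 1 a positive one, with a median of -0.28. Over all 10411 genes 52.4% were lower in BN and the median was -0.018. Markers of fibroblasts (19 of 23, median -0.26) and of macrophages and lymphocytes (11 of 12, median -0.38) were also mostly lower in BN. The gene Mfap5 (-0.35) is on both the elastic fibre and the fibroblast list. Adipocyte (17 of 22), smooth muscle (8 of 9) and nerve and Schwann cell markers (12 of 13) were mostly higher. By limma's test 1 of the 13 elastic fibre genes passed, where 0.72% of all genes did, each read from its brightest probe set. This was Mfap3, a microfibril-associated glycoprotein gene, which rose in BN: the signal ran from 68.5 to 104.5 on BN arrays (median 92.2) and from 18.6 to 53.9 on LOU arrays (median 32.9). All 5 BN arrays were above background but only 3 of the 5 LOU arrays. The mean was 85.8 ± 15.8 in BN and 34.8 ± 12.6 in LOU (SD, n = 5 each), a log2 difference of 1.36 with a standard error of 0.26 and a limma adjusted p of 0.0472. This call held in 1 of the 10 fits without 1 array, and the other Mfap3 probe set, with means of 3.22 in BN and 5.88 in LOU, was too dim to read.

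**Figure D4:**
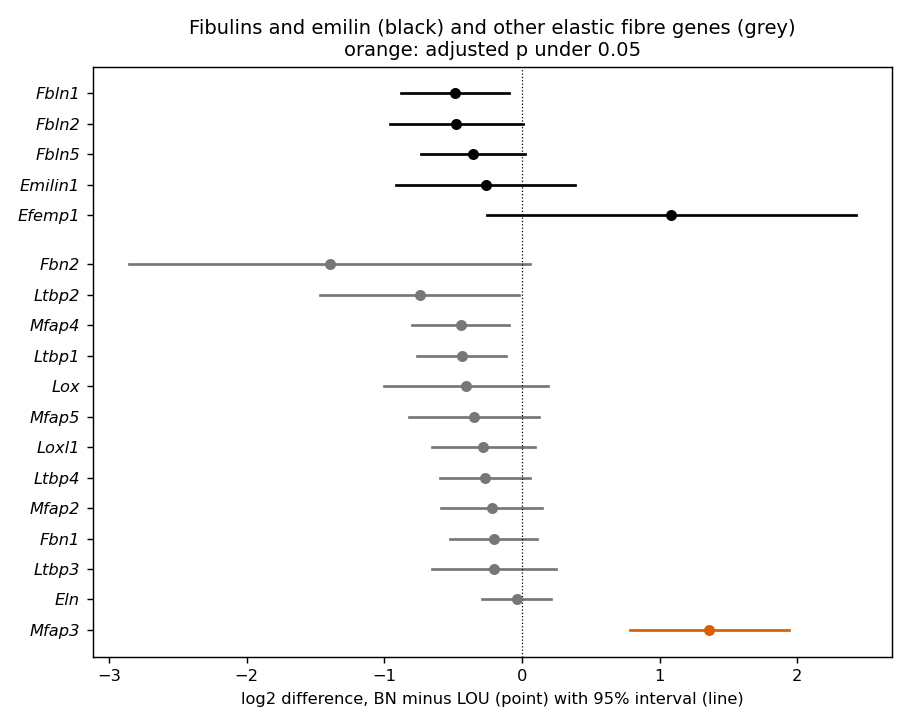
Log2 difference, BN minus LOU, of each gene (point) with its 95% interval (line), for the 5 members in black above and 13 other elastic fibre genes below, orange where the adjusted p was under 0.05. Only Mfap3, at 1.36, is orange, and Fbln1, at -0.49, is the 1 member whose interval does not reach 0.

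Elastin, which fibulin 5 and fibulin 4 bind, differed by -0.039, and its sign turned with median centring (0.012). Ltbp1, a latent TGF-beta binding protein, and Mfap4, a microfibril protein, differed by -0.44 and -0.45, with limma adjusted p-values of 0.223 and 0.257. Fibrillin 1 (Fbn1) differed by -0.21, lysyl oxidase (Lox), the elastin cross-linking enzyme that fibulin 4 helps to place, by -0.41, and Ltbp4, a partner of fibulin 5 and fibulin 4 in elastin assembly, by -0.27. The Lox difference was -0.26 without BN array 2 or without LOU array 3. A second Fbn1 probe set went the other way (0.07), and a second Lox probe set gave -0.52. None of these passed the test. Of the 13 measured elastic fibre genes, 4 had an unadjusted p under 0.05 by limma, against 13.2% of all genes. Strains did not overlap for 2 of the 13, Ltbp1 and Mfap3, against 4.38% of all genes.

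Of 7 listed relatives of the fibulins and emilins, 3 were measured and none passed limma's test. At an unadjusted p under 0.05 by limma, 1 of the 3 passed, against 13.2% of all genes. This was Hmcn2, a hemicentin with a fibulin-like C-terminal end, with means of 199.8 ± 81.8 in BN and 87.5 ± 54.3 in LOU (SD, n = 5 each), a log2 difference of 1.30 and a limma adjusted p of 0.240. The multimerins, which share the EMI domain with emilin, differed by -0.16 for Mmrn1 and -0.08 for Mmrn2, and both signs turned without LOU array 2 (0.064 and 0.077).

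Of 30 listed binding partners, 25 were measured, and none passed limma's test over all probe sets. At an unadjusted p under 0.05 by limma, 9 of the 25 passed, against 13.2% of all genes. The log2 difference was positive for 15 and negative for 10, with a median of 0.05. The 3 with the smallest p had BN signals wholly below the LOU signals. Nid1 (nidogen 1, a basement membrane protein that binds fibulins) averaged 787 ± 119 in BN and 1243.8 ± 104 in LOU (SD, n = 5 each), a log2 difference of -0.67 with a limma adjusted p of 0.0564. Tgfb1, the growth factor whose maturation emilin restrains, averaged 132 ± 20.1 in BN and 197 ± 8.79 in LOU (SD, n = 5 each), a difference of -0.59 with a limma adjusted p of 0.0730. Vcan (versican, bound by fibulins 1 and 2) averaged 191 ± 30.4 in BN and 356.4 ± 86.0 in LOU (SD, n = 5 each), a difference of -0.88 with a limma adjusted p of 0.0866. The second Nid1 probe set gave -0.14, and 4 further Vcan probe sets gave -0.82, -0.75, -0.55 and -0.24, the last with mean signals of only 6.22 in BN and 10.7 in LOU. In all, 5 of the 25 did not overlap between strains, against 4.38% of all genes. The other 2, chosen after their values were seen, were Furin (0.55), the protease that cleaves the TGF-beta precursor, and Fn1 (fibronectin, 0.23). Of the 9 with an unadjusted p under 0.05 by limma, Nid1, Tgfb1, Vcan and Itgb5 (-0.41) were lower in BN. Nid2 (0.47), Tnc (0.62), Col4a2 (0.38), Furin and Notch1 (0.29) were higher. These 9 are named here after their values were seen.

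The genes whose log2 signals followed each member most closely over the 10 arrays were found among 7369 or 7370 genes above background on all arrays, by Pearson correlation and as a description only, since arrays of the same strain share that strain. For Fbln1 they were Calml4 (r = 0.95), Pdgfrl (0.94) and Pf4 (0.93), and for Fbln2 the interleukin 6 receptor subunit gene Il6st (0.97), Igfbp6 (0.97), which is also on the fibroblast list, and Ccdc80 (0.94). For Fbln5 they were Arpin (0.94), the basement membrane collagen gene Col15a1 (0.94) and Ltbp2 (0.92), which is also on the elastic fibre list. For Emilin1 they were Tpst1 (0.96), Cercam (0.95) and Pik3r2 (0.94), and for the dim Efemp1 they were Timm8a1 (0.93), Tsc22d3 (0.92) and Klf15 (0.91). The Efemp1 correlations include its signals below background, on BN array 1 and LOU arrays 3, 4 and 5, and none with a floor is given. With each strain's mean taken out, these 15 correlations were 0.86 to 0.96, and without any 1 array the lowest of them was 0.85. The 15 genes were picked for high r on these same arrays, so these values are no independent check. The next highest r was 0.93 for Fbln1, Fbln2 and Emilin1, 0.92 for Fbln5 and 0.89 for Efemp1. None of the 15 genes passed limma's test between strains.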

How the data were processed

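The deposited table gives 1 intensity per probe set and array, on a linear scale. The submitters' processing notes name RMA with no version, but the table spans 0 to 22219.9, and all arrays share a 2% trimmed mean (200.05 to 200.06), so they were taken as scaled linear signals and log2 was computed here, with 4 values of 0 set to 0.1. Array generation and scaling are otherwise not given in the sources used here, and no batch is given. Arrays were grouped by the strain in their titles. At most 0.353% of values were equal between 2 arrays.

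Differences (BN minus LOU) came from limma 3.58.1 under R 4.3.3 (functions lmFit and eBayes, strain as the only term, two-sided, Benjamini-Hochberg over 15866 probe sets, 57 controls left out, threshold 0.05) and checked on simulated data. Of these, 12783 had 1 gene symbol. Symbols were updated through gene identifiers in RefSeq's GRCr8 table. A gene was read from its brightest probe set. List means centre each gene over the arrays.

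Members, lists, tests and alternatives were chosen with earlier results of these data known. Named genes were every member, list genes past the test or among the 3 smallest p of their list, 8 fixed genes, and the 3 closest genes of each member. The number of arrays limits the precision. Alternatives were other scalings, dim-signal rules, variance models, the replicate number as a block, arrays left out and marker means as covariates. Python 3.11.15 with pandas 2.3.3 and matplotlib 3.10.9 made the plots.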

Additional observations from a re-analysis of the deposited data

Results flagged for a closer look

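Chance singles out about 1 in 20 groups of 5 arrays by the gap rule used here, and 4 of 64 groups had such an array. The 64 groups share arrays and some genes, so they are not independent. No fibulin or emilin probe set was among the 4 flagged. LOU array 2 had a Nid1 signal of 1429.2, with the other LOU arrays at 1182.8 to 1209.9. BN array 2 had a Vcan signal of 137.6, with the other BN arrays at 197.9 to 209.4. BN array 3 had a mean of 2.39 for nerve and Schwann cell markers, with the other BN arrays at -0.19 to 0.27. LOU array 1 had a mean of 1.35 for macrophage and lymphocyte markers, with the other LOU arrays at -0.06 to 0.06.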

How the results depend on the processing

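Over 22 alternatives, the 5 members gave 109 differences, all of which kept their sign and none of which passed limma's test. Efemp1 was among the probe sets dropped with the dimmest 40%. Some of these signs could not turn. Dropping dim probe sets, a variance trend and the replicate block leave a difference unchanged, as does a floor of 32 for members other than Efemp1. Fbln2 kept its sign at only -0.0059 with the fibroblast mean as a covariate. With 1 array left out, Fbln1 differed by -0.58 to -0.37, Fbln2 by -0.60 to -0.30, Fbln5 by -0.45 to -0.26, Emilin1 by -0.48 to -0.10 and Efemp1 by 0.64 to 1.44. Probe sets past the test (39 higher and 86 lower in BN) numbered 78 and 175 without the dimmest 40%, 60 and 144 with a pseudocount of 16, 60 and 126 with a floor of 32, 81 and 161 with a variance trend, 16 and 59 without BN array 3 and LOU array 1, and 17 to 36 and 45 to 91 with 1 array left out. With the replicate number as a block they numbered 10 and 13, and the members' adjusted p-values were 0.411 to 0.767. Same-numbered arrays did not deviate together (correlations of -0.05 to 0.01), no array matched its own number best, and the numbers were not taken to pair arrays. The sign of Eln turned with median centring (0.012) and without BN array 3 and LOU array 1 (0.013), and ran from -0.076 to 0.00040 with 1 array left out, where Acta2 ran from -0.010 to 0.13, Mmrn1 from -0.32 to 0.064 and Mmrn2 from -0.17 to 0.077. Mfap3 did not pass with array weights, with the block or without BN array 3 and LOU array 1, and Nid1 and Tgfb1 passed without dim probe sets, with a pseudocount, a floor or a variance trend. Nid1 also passed with array weights and Tgfb1 without BN array 4, and Vcan passed without dim probe sets, with a variance trend and without LOU array 1. The causes were not tested. Signals near background, as for Efemp1, have little precision in these arrays.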
